A study of Homo sapiens with 16 samples.

Results

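The transcripts examined here encode the partners of the cytosolic HSP70 chaperones: J-domain co-chaperones, HSP90 and its co-chaperones, small heat shock proteins, the mitochondrial and cytosolic chaperonins, nucleotide exchange factors, the collagen chaperone SERPINH1 and the heat shock factors HSF1 and HSF2. They were given as a list of 48 gene symbols, which was not drawn from a threshold on these arrays. All 48 had a matched probe, and 46 passed the filter on signal out of 16385 genes tested and 20503 genes with a matched probe. DNAJA4, a J protein of the cytosol, and CLU, the secreted chaperone clusterin, did not pass, since they exceeded background clearly on 4 and 3 of the 16 arrays. The 46 tested members therefore include no gene that lay near background in every condition.

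LP-1 cells come from a human multiple myeloma, and the study describes them as deleted or mutated for TRAF3, an adaptor that keeps non-canonical NF-κB signalling low. LP-1-cIAP2-eGFP cells had been transduced with a lentiviral vector carrying cIAP2, a ubiquitin ligase of the inhibitor of apoptosis family, and control (LP-1-eGFP) cells with the vector without it, and both were sorted for eGFP. Each line was left untreated or was incubated with 10 nM bortezomib, an inhibitor of the proteasome, for 6 h or 24 h, with 2 replicates in each of the 8 conditions. Each line is a single transduced population, so the effect of cIAP2 cannot be told apart from other differences between the 2 populations. The labels call the replicates biological without saying how the cultures were separated, so p-values measure the spread between these samples.

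Chaperones of these classes work as a relay. J proteins deliver unfolded clients to HSP70 and start its ATP cycle, exchange factors such as the BAG proteins release the client, STIP1 hands it on to HSP90, and the co-chaperones AHSA1, PTGES3, CDC37 and the FKBP immunophilins tune the HSP90 cycle. Small heat shock proteins hold unfolded proteins without using ATP, and the ring-shaped chaperonins CCT, in the cytosol, and HSPD1 with HSPE1, in mitochondria, enclose a client while it folds. Many of these genes are transcribed by HSF1 from heat shock elements, which are arrays of inverted GAA units, and a proteasome inhibitor, by letting damaged proteins accumulate, is a classic inducer of HSF1. Plasma cells secrete large amounts of antibody and rely on the proteasome, which is why the drug is used in myeloma.

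The heat shock element is the sequence feature that could link these promoters, and so the promoters of the members were read for it. RefSeq promoter windows of assembly GRCh38.p14, which run from 250 bases before to 50 bases after an annotated start, were given for 41 of the 48 members. A dyad of inverted units 2 bases apart, GAANNTTC or TTCNNGAA, was searched. Each form reads the same on both strands, and a run of 3 alternating units holds 1 dyad of each form. A dyad was present in 13.5% of all 35116 windows and in the windows of 18 of the 41 members (43.9%), against 16.2% of all genes. A run of at least 3 alternating units was present in 0.49% of all windows and 0.608% of genes, and in 7 of the 41 members (17.1%). These 7 are shown because they carry the longer run, and DNAJB1 because it rose most and has 2 separate dyads. Each sequence is given 5′ to 3′ on the strand of its gene, with the GAA and TTC units in capitals.
CHORDC1, chr11:90223075-90223121, minus strand: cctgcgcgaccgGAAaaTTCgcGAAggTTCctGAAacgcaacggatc
HSPD1, chr2:197500056-197500090, minus strand: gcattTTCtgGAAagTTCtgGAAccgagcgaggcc
HSP90AA1, chr14:102087108-102087144, minus strand: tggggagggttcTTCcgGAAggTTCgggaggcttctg
HSP90AB1, first run, chr6:44247766-44247802, plus strand: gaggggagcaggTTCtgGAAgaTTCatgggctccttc
HSP90AB1, second run, chr6:44247819-44247855, plus strand: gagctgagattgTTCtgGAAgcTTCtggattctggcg
SERPINH1, chr11:75562165-75562201, plus strand: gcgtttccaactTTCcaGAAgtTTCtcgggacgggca
DNAJB6, chr7:157336861-157336897, plus strand: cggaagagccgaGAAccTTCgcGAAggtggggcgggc
DNAJA1, chr9:33025264-33025300, plus strand: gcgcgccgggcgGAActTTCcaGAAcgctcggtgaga
DNAJB1, chr19:14518425-14518486, minus strand: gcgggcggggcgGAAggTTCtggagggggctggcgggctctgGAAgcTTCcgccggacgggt

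The CHORDC1 run held 5 units and began 60 bases before the start, and the HSPD1 run held 4 units and began 245 bases before it, at the far edge of the window. The other runs held 3 units, which lay before the annotated start in HSP90AA1, HSP90AB1, SERPINH1 and DNAJB6 and just after it in DNAJA1. The matches are a description of letters in a window, and whether a factor was bound there was not measured. A promoter window was not used here for CCT6A, CLU, CRYAB, FKBP4, HSF1, HSPA14 and STUB1.

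The levels below are log2 of the background-corrected signal after quantile normalization, and a value on this scale is comparable between arrays for the same probe and not between probes. The median log2 signal before normalization was between 5.73 and 6.64 on 15 arrays and 3.18 on replicate 1 of bortezomib-treated LP-1-cIAP2-eGFP cells at 24 h, where 35.5% of spots lay well above background against 49.0% to 71.1% elsewhere. The 2 arrays of that condition differed with an SD of 1.48 over probes, against 0.495 to 0.773 in the other 7 conditions. The count of members called in that condition, and the calls that changed, are also given without the dim array. Other values include it. Of the 7 plasma cell markers examined, SDC1, TNFRSF17, CD38, XBP1, IRF4 and MZB1 were well above background on all 16 arrays and PRDM1 on 15, and the transcripts MS4A1 and PAX5 of earlier B cells on 0 arrays. Of the T cell and myeloid markers, CD14 was well above background on 13 arrays, CD3D on 12 and CD3E on 10. At 24 h of bortezomib 6 of the 7 plasma cell markers fell in control cells and 7 of 7 in LP-1-cIAP2-eGFP cells, and the part of this in the values below was not tested. In RNA of whole cultures, fewer cells with a transcript and less of it per cell cannot be told apart.

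Bortezomib raised a large share of the members within 6 h. In control cells 14 of the 46 were higher at a Benjamini-Hochberg adjusted p under 0.05 with limma (30.4%), beside 1.91% of all tested genes, and 0 were lower, beside 0.958% of all genes. In LP-1-cIAP2-eGFP cells 10 were higher (21.7%), beside 1.11% of all genes, and 0 were lower, beside 0.366%. The 10 members called in LP-1-cIAP2-eGFP cells were all among the 14 of the control cells, an overlap that was not counted over all genes. The median log2 fold change of the members was 0.48 in control cells and 0.50 in LP-1-cIAP2-eGFP cells, against -0.05 and -0.03 over all genes. At an unadjusted p under 0.05 there were 25 and 23 members in either direction, beside 2564 of 16385 and 2150 of 16379 genes. These counts moved with single libraries that enter the estimate of the spread: without either array of bortezomib-treated LP-1-cIAP2-eGFP cells at 24 h they were 20 in control cells and 19 in LP-1-cIAP2-eGFP cells. With any array at 6 h or either untreated LP-1-cIAP2-eGFP array at 24 h left out, they lay between 4 and 9 and between 2 and 6.

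By 24 h the response of the members went both ways. In control cells 19 of 46 were higher (41.3%), beside 13.3% of all genes, and 3 were lower (6.52%), beside 15.1% of all genes. In LP-1-cIAP2-eGFP cells 17 were higher (37.0%), beside 14.4% of all genes, and 6 were lower (13.0%), beside 22% of all genes. The median log2 fold change of the members was 0.42 and 0.34, against -0.03 and -0.16 over all genes. The median of all genes in LP-1-cIAP2-eGFP cells was 0.00663 instead of -0.157 when arrays were scaled to their 75th percentile. Without the dim array 25 members were called in that line, 21 higher and 4 lower, and 21 of the 25 were among the 23 called with it. The count was 14 in control cells without treated replicate 1 at 24 h, and 14 and 15 in LP-1-cIAP2-eGFP cells without untreated replicate 1 or 2 at 24 h. Across both lines and times 9 members were higher in all 4 comparisons and 23 in at least 1. In at least 1 comparison 6 were lower, and 17 were called in none. The same overlaps were not counted over all genes, so these counts stand without a background. Of the 9, HSP90AB1 and BAG2 had the least stable calls. Those at 6 h in LP-1-cIAP2-eGFP cells were kept in 5 and 9 of 25 alternative settings.

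**Figure D1:**
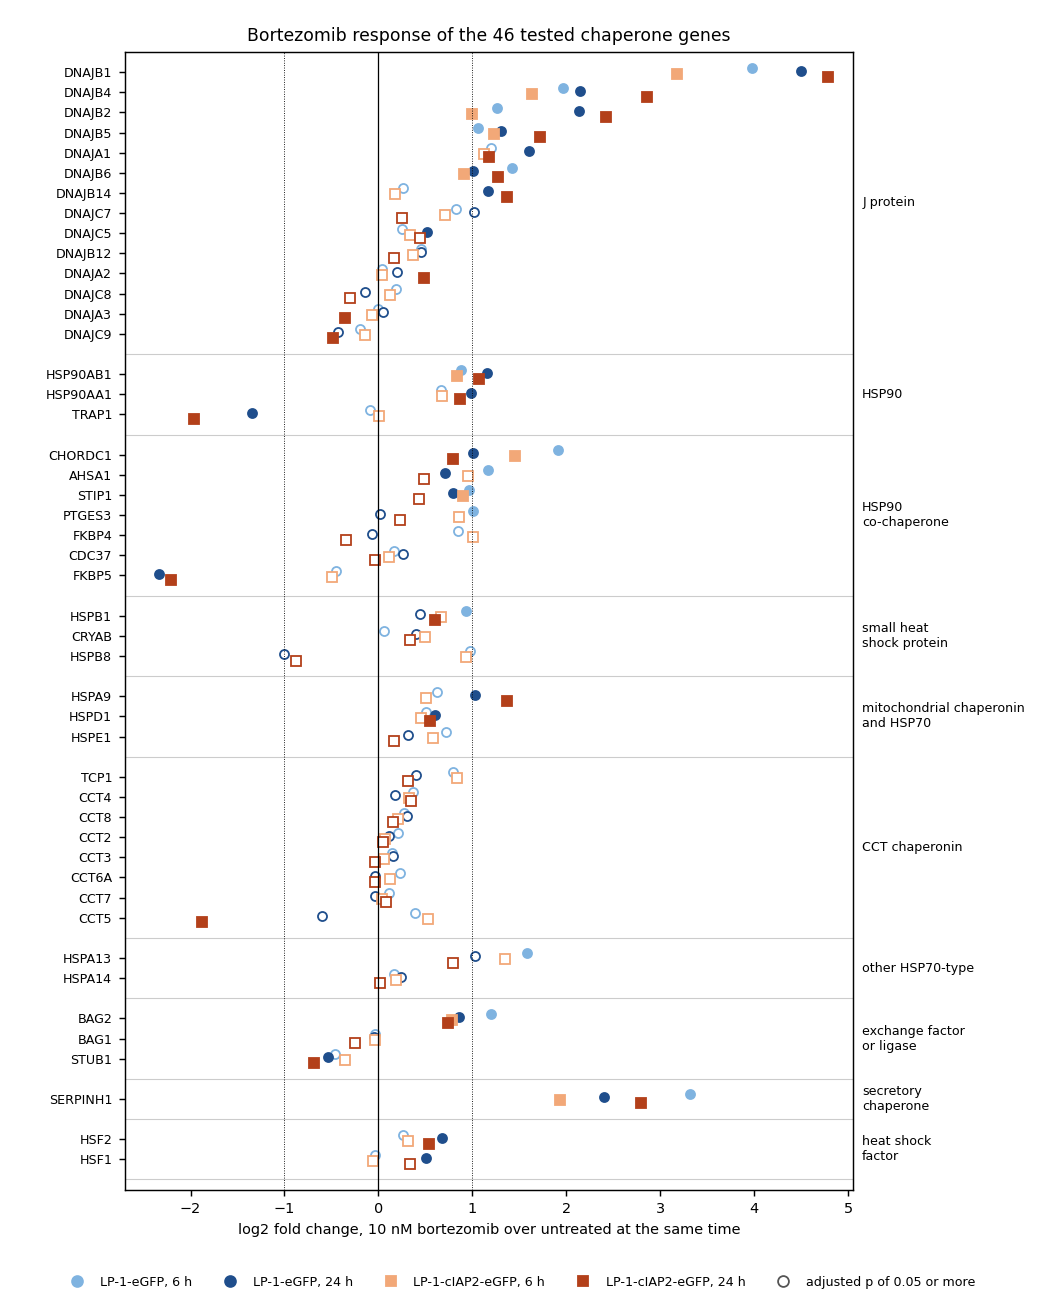
Log2 fold change with 10 nM bortezomib over untreated cells of the same line and time, for each of the 46 tested members grouped by class. Circles are LP-1-eGFP and squares LP-1-cIAP2-eGFP, light at 6 h and dark at 24 h, filled where the adjusted p was under 0.05, and dotted lines mark 2-fold. The J proteins DNAJB1 to DNAJB6 and SERPINH1 lie to the right at both times, the CCT subunits other than CCT5 and TCP1 lie near 0, and FKBP5 and TRAP1 lie to the left at 24 h.

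Of the 14 J proteins tested, 5 were higher at 6 h in each line, beside 1.91% of all genes in control and 1.11% in LP-1-cIAP2-eGFP cells. At 24 h 8 were higher in each line, beside 13.3% and 14.4% of all genes. In LP-1-cIAP2-eGFP cells at 24 h 2, DNAJC9 and DNAJA3, were lower, beside 22% of all genes. DNAJB1, the main stress-inducible J protein of cytosolic HSP70, had log2 signals of 11.78 and 11.91 in untreated control cells at 6 h and 15.84 and 15.80 with bortezomib. At 24 h its values were 10.16 and 11.50 untreated and 15.04 and 15.62 with the drug. In LP-1-cIAP2-eGFP cells DNAJB1 read 11.97 and 12.09 untreated and 15.29 and 15.12 treated at 6 h, then 11.22 and 11.56 against 16.14 and 16.22 at 24 h. Every treated array lay above every untreated array. DNAJB1 rose by 3.98 ± 0.36 (SE) on the log2 scale at 6 h in control cells, 15.8-fold with an adjusted p of 0.00109, and by 3.18 ± 0.36 in LP-1-cIAP2-eGFP cells. At 24 h the rises were 4.50 ± 0.36 (22.6-fold) and 4.79 ± 0.36 (27.7-fold).

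DNAJB4, a close relative of DNAJB1, was a dim probe that rose in every comparison. Its control values were 7.56 and 7.37 untreated and 9.48 and 9.37 treated at 6 h, and 6.92 and 7.07 against 9.26 and 9.03 at 24 h. In LP-1-cIAP2-eGFP cells they were 6.65 and 6.77 against 8.21 and 8.47 at 6 h, and 6.92 and 6.44 against 9.62 and 9.47 at 24 h. The treated and untreated arrays did not overlap, and the log2 fold changes were 1.96, 1.63, 2.15 and 2.86 (SE 0.189) for control and LP-1-cIAP2-eGFP cells at 6 h and then at 24 h. DNAJB2, a J protein with ubiquitin-interacting motifs that steers clients towards the proteasome, rose later. DNAJB2 values were 12.90 and 13.17 in untreated control cells and 14.18 and 14.42 with the drug at 6 h, and 13.03 and 12.92 against 14.99 and 15.24 at 24 h. In LP-1-cIAP2-eGFP cells DNAJB2 was 13.11 and 13.33 against 14.05 and 14.39 at 6 h, and 13.05 and 13.14 against 15.46 and 15.59 at 24 h. All treated arrays were above all untreated ones, and the rise went from 2.39-fold at 6 h to 4.40-fold at 24 h in control cells and from 1.99-fold to 5.38-fold in LP-1-cIAP2-eGFP cells.

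DNAJB6, which suppresses protein aggregation, rose by 1.42, 0.91, 1.01 and 1.27 (log2; control then LP-1-cIAP2-eGFP cells at 6 h, then the same at 24 h), and DNAJB5 by 1.06, 1.23, 1.30 and 1.72. The other DNAJB6 probes gave 1.53 and 1.12 at 6 h in control cells, and 1 of them gave 0.07 at 24 h in LP-1-cIAP2-eGFP cells. A second DNAJB5 probe gave 0.81, 1.28, 0.66 and 2.01 in the same order. Only the last of these passed the test (adjusted p = 0.00145, limma). DNAJA1, the farnesylated partner of HSP70 whose element lies just after its start, was 2.29-fold and 2.17-fold higher at 6 h, with adjusted p of 0.0951 and 0.158, and rose 3.04-fold and 2.26-fold at 24 h. DNAJB14, a J protein of the endoplasmic reticulum membrane, had log2 fold changes of 0.26 and 0.18 at 6 h that did not pass the test and rose by 1.16 and 1.37 at 24 h. DNAJC5, the synaptic vesicle J protein, rose by 0.52 in control cells at 24 h and DNAJA2 by 0.49 in LP-1-cIAP2-eGFP cells at 24 h. DNAJC9, a histone chaperone, and DNAJA3, the mitochondrial J protein, fell by 0.49 and 0.35 in LP-1-cIAP2-eGFP cells at 24 h, and the DNAJC9 call was lost without the dim array. The DNAJC5 call in control cells and the DNAJA3 call were each kept in 6 of 25 alternative settings. DNAJB12, DNAJC7 and DNAJC8 were called in none of the 4 comparisons, although DNAJC7, which binds both HSP70 and HSP90, read 12.34 and 12.53 untreated and 13.45 on both treated control arrays at 24 h. In LP-1-cIAP2-eGFP cells DNAJC7 read 12.06 and 12.36 untreated and 11.72 and 13.22 treated at 24 h, the lower value on the dim array. Without that array DNAJC7 was called in LP-1-cIAP2-eGFP cells at 24 h (log2 1.00, adjusted p = 0.0103, limma), and so was DNAJC5 (0.65, adjusted p = 0.00884).

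**Figure D2:**
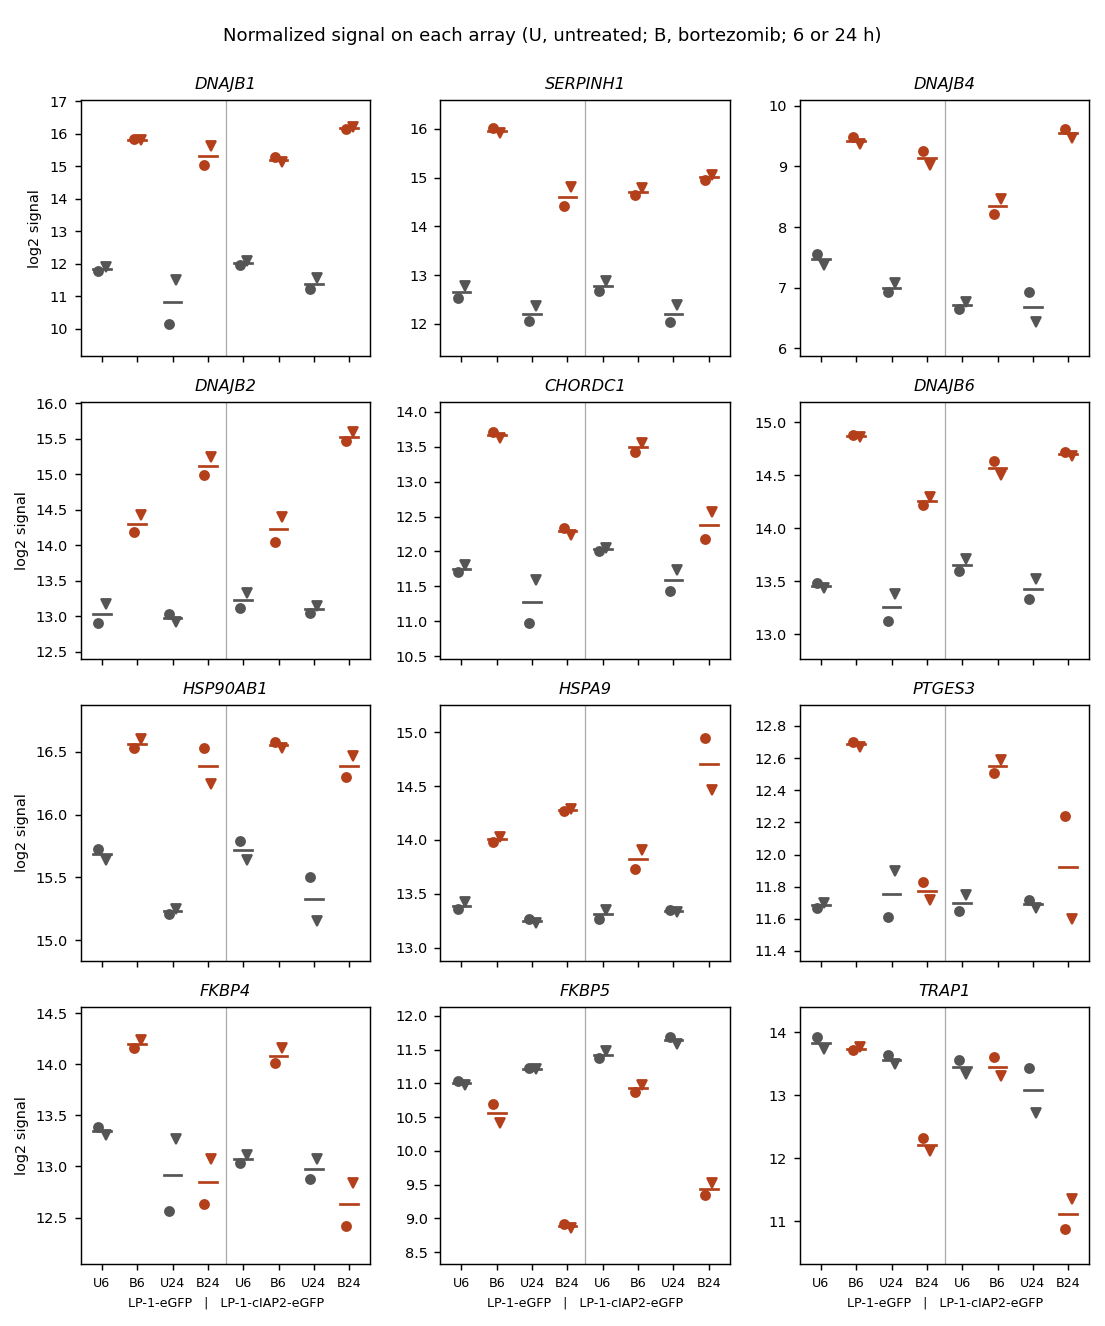
Normalized log2 signal on each of the 16 arrays for 12 members, with untreated arrays in grey and bortezomib-treated arrays in red. Circles are replicate 1, triangles replicate 2 and bars their mean, each panel has its own vertical scale, and control cells stand left of the line and LP-1-cIAP2-eGFP cells right of it. DNAJB1, SERPINH1, DNAJB4 and DNAJB2 are high on all treated arrays, PTGES3 and FKBP4 at 6 h, and FKBP5 and TRAP1 are low on the treated arrays at 24 h.

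At 24 h both cytosolic HSP90 genes rose and the mitochondrial HSP90 fell. The brightest HSP90AB1 probe and the dimmer HSP90AA1 probes were already higher at 6 h. HSP90AB1, the constitutive cytosolic form, read 15.73 and 15.64 untreated and 16.53 and 16.60 treated at 6 h in control cells, and 15.21 and 15.25 against 16.53 and 16.24 at 24 h. In LP-1-cIAP2-eGFP cells HSP90AB1 was 15.79 and 15.64 against 16.58 and 16.53 at 6 h, and 15.50 and 15.15 against 16.30 and 16.47 at 24 h. Treated arrays were above untreated arrays throughout, and the rise was 1.84-fold and 1.79-fold at 6 h and 2.23-fold and 2.10-fold at 24 h. The call at 6 h was kept in 14 of 25 alternative settings in control cells and in 5 of 25 in LP-1-cIAP2-eGFP cells. A second HSP90AB1 probe did not pass at 6 h (log2 0.99 and 1.15, adjusted p = 0.132 and 0.107, limma). At 24 h that probe rose by 1.51 and 1.65 (adjusted p = 0.00384 and 0.00193).

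HSP90AA1, the inducible cytosolic form, was read by 3 probes that disagreed in size. Its brightest probe read 17.48 and 17.60 untreated and 18.17 and 18.24 treated at 6 h in control cells, and 17.02 and 17.37 against 18.22 and 18.14 at 24 h. In LP-1-cIAP2-eGFP cells it read 17.54 and 17.72 against 18.30 and 18.33, and then 17.42 and 17.49 against 18.33 and 18.31. The treated values thus stood within a narrow band near the top of the scale, and of the 67 tested member probes 0 were marked as saturated on any array. By this probe the log2 fold changes for HSP90AA1 were 0.67 and 0.68 at 6 h, with adjusted p of 0.0556 and 0.0705, and the rises at 24 h were 0.98 and 0.86. The other 2 HSP90AA1 probes, which were dimmer, rose at 6 h by 1.80 and 2.31 in control cells and 1.67 and 2.13 in LP-1-cIAP2-eGFP cells. Both passed the test at 6 h, with adjusted p of 0.000584 and 0.000663 in control cells and 0.000936 and 0.00116 in LP-1-cIAP2-eGFP cells (limma). At 24 h these 2 probes rose by 2.14 and 2.32 and by 2.27 and 2.59. For 1 of them the control arrays read 16.24 and 16.10 untreated and 17.96 and 17.98 treated at 6 h. Untreated and treated cells thus stood apart by all 3 probes. The counts at 6 h rest on the brightest probe and so leave HSP90AA1 out.

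TRAP1, the HSP90 of the mitochondrial matrix, went the other way at 24 h. It read 13.93 and 13.73 untreated and 13.71 and 13.77 treated at 6 h in control cells, and 13.64 and 13.49 against 12.32 and 12.11 at 24 h. In LP-1-cIAP2-eGFP cells the values were 13.55 and 13.33 against 13.60 and 13.30 at 6 h, and 13.43 and 12.72 against 10.88 and 11.35 at 24 h. The groups overlapped at 6 h and did not at 24 h. TRAP1 fell 2.55-fold in control cells (adjusted p = 0.00382, limma) and 3.89-fold in LP-1-cIAP2-eGFP cells (adjusted p = 0.000373) at 24 h.

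Of the 7 HSP90 co-chaperones tested, 4 were higher in control cells and 2 in LP-1-cIAP2-eGFP cells at 6 h, beside 1.91% and 1.11% of all genes. At 24 h 3 and 1 were higher, beside 13.3% and 14.4% of all genes, and 1 was lower in each line, beside 15.1% and 22%. The count of 1 higher in LP-1-cIAP2-eGFP cells at 24 h was thus near the share of all genes. CHORDC1, a zinc-binding partner of HSP90 whose promoter has the run of 5 units, read 11.70 and 11.81 untreated and 13.71 and 13.62 treated at 6 h in control cells, and 10.97 and 11.59 against 12.34 and 12.24 at 24 h. In LP-1-cIAP2-eGFP cells CHORDC1 read 12.01 and 12.05 against 13.43 and 13.55, and then 11.43 and 11.74 against 12.18 and 12.57. It was higher on each treated array than on the untreated arrays of its line and time, 3.75-fold and 2.75-fold at 6 h and 2.02-fold and 1.73-fold at 24 h. Its other 2 probes gave log2 changes of 2.00 and 2.03 in control cells at 6 h.

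AHSA1, the activator of the HSP90 ATPase, read 13.83 and 13.94 untreated and 14.94 and 15.16 treated at 6 h in control cells, and 13.30 and 13.89 against 14.21 and 14.40 at 24 h. In LP-1-cIAP2-eGFP cells AHSA1 read 13.76 and 13.91 against 14.75 and 14.83, and then 13.56 and 13.67 against 13.89 and 14.31. Each treated array was above the untreated arrays of its line and time. AHSA1 rose in control cells at both times, by 1.16 and 0.71 on the log2 scale, and the differences in LP-1-cIAP2-eGFP cells were 0.96 (adjusted p = 0.0783) and 0.49 (adjusted p = 0.12). STIP1, the adaptor between HSP70 and HSP90, rose by 0.97 and 0.90 at 6 h and by 0.80 in control cells at 24 h. CDC37, which loads kinases onto HSP90, had log2 differences between -0.03 and 0.26 and was called in none.

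A pair of co-chaperones stood high at 6 h and not at 24 h. PTGES3, the p23 co-chaperone that holds HSP90 closed, read 11.67 and 11.70 untreated and 12.70 and 12.67 treated at 6 h in control cells, and 11.61 and 11.90 against 11.83 and 11.72 at 24 h. In LP-1-cIAP2-eGFP cells PTGES3 read 11.65 and 11.75 against 12.51 and 12.59, and then 11.72 and 11.67 against 12.24 and 11.60. The treated arrays were above the untreated ones at 6 h and overlapped with them at 24 h, and the rise passed the test in control cells at 6 h (2.01-fold), with log2 0.86 (adjusted p = 0.0879, limma) in LP-1-cIAP2-eGFP cells. FKBP4, the immunophilin FKBP52 of steroid receptor complexes, read 13.39 and 13.31 against 14.16 and 14.24 at 6 h in control cells, and 12.56 and 13.27 against 12.63 and 13.07 at 24 h. In LP-1-cIAP2-eGFP cells FKBP4 read 13.03 and 13.11 against 14.01 and 14.16, and then 12.88 and 13.07 against 12.42 and 12.84. Its groups also stood apart at 6 h, by log2 0.85 and 1.01 with adjusted p of 0.147 and 0.109, and by -0.06 and -0.34 at 24 h.

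FKBP5, the immunophilin FKBP51 and a glucocorticoid-responsive gene, was the member that fell furthest. In control cells FKBP5 read 11.04 and 10.98 untreated and 10.70 and 10.41 treated at 6 h, and 11.23 and 11.21 against 8.91 and 8.85 at 24 h. In LP-1-cIAP2-eGFP cells it read 11.37 and 11.48 against 10.88 and 10.98, and then 11.69 and 11.59 against 9.35 and 9.52. The treated arrays were below the untreated ones at both times, by log2 differences of -0.45 and -0.49 at 6 h that did not pass the test, and FKBP5 fell 5.06-fold and 4.61-fold at 24 h (adjusted p = 1.5e-05 and 9e-06, limma). A second FKBP5 probe was dim, well above background on 6 untreated arrays and on none of the 8 treated ones, so no fold is given for it.

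Among the small heat shock proteins, HSPB1, the abundant HSP27, read 17.35 and 17.45 untreated and 18.31 and 18.34 treated at 6 h in control cells, and 17.26 and 17.63 against 17.71 and 18.06 at 24 h. In LP-1-cIAP2-eGFP cells HSPB1 read 17.21 and 17.43 against 17.89 and 18.08, and then 17.34 and 17.45 against 17.93 and 18.06. HSPB1 rose 1.90-fold at 6 h in control cells and 1.52-fold at 24 h in LP-1-cIAP2-eGFP cells, and its other differences, log2 0.67 and 0.44, did not pass the test although the arrays did not overlap. The other 2 HSPB1 probes were called in none of the 4 comparisons, with log2 0.60 and 1.09 at 6 h in control cells and 0.28 and 0.15 at 24 h in LP-1-cIAP2-eGFP cells. CRYAB, αB-crystallin, and HSPB8, the partner of BAG3 in selective autophagy, were dim, between 5.28 and 6.46 and between 3.24 and 6.17 on the arrays, and neither was called. HSPB8 was well above background on 7 of the 16 arrays, which limits what could be detected.

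The mitochondrial HSP70 HSPA9 and the chaperonin HSPD1 passed the test at 24 h and not at 6 h. HSPA9, mortalin, read 13.36 and 13.42 untreated and 13.98 and 14.03 treated at 6 h in control cells, and 13.27 and 13.23 against 14.27 and 14.29 at 24 h. In LP-1-cIAP2-eGFP cells HSPA9 read 13.27 and 13.35 against 13.73 and 13.91, and then 13.35 and 13.33 against 14.95 and 14.46. The arrays did not overlap at either time, and HSPA9 rose 2.05-fold and 2.59-fold at 24 h. HSPD1, the HSP60 chaperonin whose promoter holds the run of 4 units, read 17.90 and 17.95 against 18.41 and 18.45 at 6 h in control cells and 17.70 and 17.67 against 18.29 on both treated arrays at 24 h. In LP-1-cIAP2-eGFP cells HSPD1 read 17.86 and 17.99 against 18.34 and 18.43, and then 17.86 and 17.77 against 18.36 and 18.37. All treated arrays were above all untreated ones, with log2 differences of 0.50 and 0.46 at 6 h that did not pass the test, and HSPD1 rose 1.52-fold and 1.46-fold at 24 h. Averaged over the lines, the HSPD1 difference was 0.48 at 6 h and 0.58 at 24 h, and these did not differ by the test (adjusted p = 0.663, limma). HSPE1, the HSP10 lid of the same chaperonin, had a log2 difference of 0.72 (adjusted p = 0.0514) in control cells at 6 h and was called in none.

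The cytosolic chaperonin CCT, which folds actin and tubulin, showed 0 rises by limma in any of the 4 comparisons over its 8 tested subunits. Over all genes 1.91% and 1.11% were higher at 6 h and 13.3% and 14.4% at 24 h. At an unadjusted p under 0.05 there were 2 subunits in each line at 6 h and 0 and 2 at 24 h. The medians of the 8 log2 fold changes were 0.25 and 0.16 at 6 h and 0.13 and 0.06 at 24 h. TCP1, the alpha subunit, stood highest, with log2 differences of 0.79 and 0.84 at 6 h (adjusted p = 0.0608 and 0.0689, limma), while CCT2, CCT3, CCT6A and CCT7 had differences between -0.04 and 0.23 in all 4. CCT4 and CCT8 lay between 0.16 and 0.37. CCT2, CCT3 and CCT4 read 16.35 or more on every array, so low signal did not limit them. CCT5 was read by a dim probe, at 7.42 and 7.50 in untreated control cells at 6 h and 7.82 and 7.87 with the drug, and at 6.62 and 7.50 against 6.16 and 6.76 at 24 h. In LP-1-cIAP2-eGFP cells it was 7.44 and 7.61 against 7.92 and 8.19, and then 7.73 and 7.46 against 4.79 and 6.64, where the 4.79 came from the dim array and was not well above background. The CCT5 call at 24 h in LP-1-cIAP2-eGFP cells (log2 -1.88, adjusted p = 0.021, limma) was lost without that array.

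Of the remaining classes, SERPINH1, the HSP47 chaperone of procollagen in the endoplasmic reticulum, rose in all 4 comparisons. It read 12.53 and 12.77 untreated and 16.02 and 15.91 treated at 6 h in control cells, and 12.05 and 12.36 against 14.41 and 14.81 at 24 h. In LP-1-cIAP2-eGFP cells SERPINH1 read 12.67 and 12.89 against 14.65 and 14.78 at 6 h, and 12.03 and 12.39 against 14.96 and 15.06 at 24 h. No treated array overlapped an untreated one. The rises were 9.98-fold and 3.82-fold at 6 h and 5.30-fold and 6.93-fold at 24 h.

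BAG2, an exchange factor that also inhibits the ligase STUB1, read 13.43 and 13.26 untreated and 14.60 and 14.48 treated at 6 h in control cells, and 13.05 and 13.25 against 14.02 and 13.99 at 24 h. In LP-1-cIAP2-eGFP cells BAG2 read 13.67 on both untreated arrays against 14.51 and 14.40, and then 13.44 on both against 14.06 and 14.31. It rose 2.29-fold and 1.72-fold at 6 h and 1.81-fold and 1.68-fold at 24 h, the call in LP-1-cIAP2-eGFP cells at 6 h being kept in 9 of 25 alternative settings. STUB1 itself, the CHIP ubiquitin ligase that marks HSP70 and HSP90 clients for degradation, moved the other way. STUB1 read 14.63 and 14.57 against 14.22 and 14.05 at 6 h in control cells, and 14.33 and 14.55 against 13.83 and 13.98 at 24 h. In LP-1-cIAP2-eGFP cells STUB1 read 14.66 and 14.61 against 14.34 and 14.22, and then 14.50 and 14.49 against 13.62 and 13.99. Treated arrays were below the untreated arrays of the same line and time, and STUB1 fell by 0.53 and 0.69 on the log2 scale at 24 h, the call in control cells being kept in 7 of 25 alternative settings. BAG1 had log2 differences between -0.25 and -0.04 and was not called.

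HSPA13, a microsomal HSP70-like ATPase, read 11.32 on both untreated control arrays and 12.86 and 12.93 with the drug at 6 h, and 12.23 and 11.48 against 12.88 and 12.89 at 24 h. In LP-1-cIAP2-eGFP cells HSPA13 read 11.57 and 11.62 against 12.90 and 12.97, and then 12.06 and 11.83 against 12.17 and 13.31. The groups did not overlap, although in LP-1-cIAP2-eGFP cells at 24 h the dim array read close to the untreated ones. HSPA13 rose 2.98-fold in control cells at 6 h, and its other 3 differences, log2 1.35, 1.03 and 0.79, did not pass the test. Without the dim array the last was 1.36 and passed (adjusted p = 0.00437, limma), and the call at 6 h was kept in 6 of 25 alternative settings. HSPA14, a ribosome-associated HSP70, had log2 differences between 0.02 and 0.24.

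The transcripts of the heat shock factors themselves rose by less than 2-fold. HSF1 read 15.23 and 15.24 untreated and 15.18 and 15.21 treated at 6 h in control cells, and 15.22 and 15.10 against 15.59 and 15.74 at 24 h. In LP-1-cIAP2-eGFP cells HSF1 read 15.04 and 15.07 against 14.93 and 15.05, and then 14.94 and 15.01 against 15.17 and 15.44. The treated arrays stood above the untreated ones at 24 h and overlapped or lay just below them at 6 h. HSF1 rose 1.42-fold in control cells at 24 h, and its other 2 probes disagreed in LP-1-cIAP2-eGFP cells at 24 h, with log2 0.76 (adjusted p = 0.012, limma) and -0.43 (adjusted p = 0.286). By its brightest probe HSF1 was called there without the dim array (log2 0.47, adjusted p = 0.0226). HSF2 read 10.80 on both untreated control arrays and 11.12 and 11.01 treated at 6 h, and 10.85 and 10.92 against 11.70 and 11.41 at 24 h. In LP-1-cIAP2-eGFP cells HSF2 read 10.76 and 10.89 against 11.19 and 11.09, and then 10.94 and 10.81 against 11.29 and 11.54. Every treated array was above the untreated arrays of its line and time, and HSF2 rose 1.60-fold and 1.45-fold at 24 h.

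Set beside the promoters printed above, the 7 members with a run of 3 or more units had a median log2 fold change of 1.20 in control cells and 0.91 in LP-1-cIAP2-eGFP cells at 6 h, against 0.39 and 0.37 for the 33 tested members whose windows had none. At 24 h the medians were 1.01 and 1.07 against 0.31 and 0.26. All 7 were higher in both lines at 24 h, and 4 of them at 6 h, in each line. Among the 33 without the run, 10 and 6 were higher at 6 h and 11 and 10 at 24 h. The largest rise, that of DNAJB1, was among those without the run, and so were DNAJB2 and DNAJB5, whose windows held no dyad. These are counts in a list of stress genes and were not tested.

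The response of 10 members changed between 6 h and 24 h when it was averaged over the lines (21.7%), beside 20.7% of all genes. Of these, 5 were larger at 24 h. DNAJB2 went from 1.13 to 2.28 on the log2 scale, DNAJB4 from 1.80 to 2.51, DNAJB14 from 0.22 to 1.27 and HSPA9 from 0.56 to 1.20. HSF1, the fifth, went from -0.05 to 0.42.

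The other 5 were smaller or negative at 24 h. CHORDC1 went from 1.68 to 0.90, PTGES3 from 0.93 to 0.12 and FKBP4 from 0.93 to -0.20. TRAP1 went from -0.04 to -1.66 and FKBP5 from -0.47 to -2.27. By their brightest probes 4 of the 7 HSP90 co-chaperones had a smaller or more negative response at 24 h and 0 a larger one. Of the 14 J proteins 3 had a larger one and 0 a smaller one. Over all 16379 genes 1447 had a larger and 1937 a smaller one. Of 9 HSP90 co-chaperones outside the list, 2 had a larger and 0 a smaller one. Other probes passed in the same direction for FKBP4 and DNAJB2, and not for CHORDC1 (adjusted p = 0.138 and 0.173, limma) or FKBP5. Nor did the other 2 HSF1 probes pass (log2 0.58 and 0.04, adjusted p = 0.0618 and 0.95, limma). Another DNAJB6 probe had a smaller response at 24 h (log2 -0.79, adjusted p = 0.0446, limma), and so had another TCP1 probe (-0.70, adjusted p = 0.0215). The difference for DNAJB1, log2 1.06, did not pass the test (adjusted p = 0.0842, limma). The count of 10 fell to between 4 and 6 when 1 of 10 arrays was left out, both untreated and both bortezomib-treated control arrays at 6 h, both treated control arrays at 24 h, both untreated LP-1-cIAP2-eGFP arrays at 6 h, treated replicate 1 at 6 h or untreated replicate 2 at 24 h of that line. In untreated cells 0 of the 46 members differed between 24 h and 6 h by limma, beside 0.0122% of all genes. At an unadjusted p under 0.05 there were 7 members, beside 952 of 16379 genes. The median log2 difference of the members was -0.14, against -0.01 over all genes. It was positive for 11 of the 46 members and for 7732 of all genes. Untreated values at 24 h enter the 24 h responses, and the part of this difference in them was not tested.

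**Figure D3:**
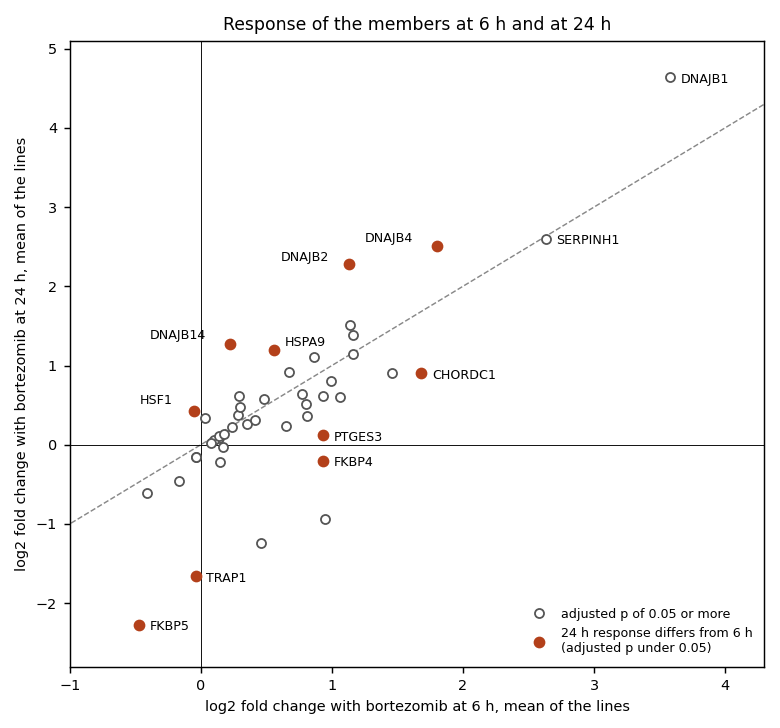
Log2 fold change with bortezomib at 24 h against that at 6 h, each the mean of the lines, for the 46 tested members. Filled points had a response at 24 h that differed from that at 6 h (adjusted p under 0.05) and the dashed line marks equal responses. DNAJB2, DNAJB4, DNAJB14, HSPA9 and HSF1 lie above the line and CHORDC1, PTGES3, FKBP4, TRAP1 and FKBP5 below it.

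Whether cIAP2 changed the chaperone response was asked by the difference between the lines in the effect of bortezomib. At 6 h 0 of 46 members differed by limma, beside 0% of all genes, and 2 had an unadjusted p under 0.05. These were SERPINH1, whose rise was smaller in LP-1-cIAP2-eGFP cells by 1.38 on the log2 scale (95% interval -2.01 to -0.76, adjusted p = 0.756), and DNAJB6 (-0.51, interval -0.94 to -0.07, adjusted p = 1). At 24 h 0 of 46 differed, beside 0.104% of all genes, and DNAJB4 (0.71, interval 0.11 to 1.31) and DNAJA3 (-0.40, interval -0.76 to -0.04) had an unadjusted p under 0.05. The 95% interval of the difference lay within 2-fold either way for 37 members at 6 h and 34 at 24 h, and for the rest the arrays leave a larger difference possible. With replicate 2 of bortezomib-treated LP-1-cIAP2-eGFP cells at 24 h left out, so that the dim array stood alone, 3 members were called at 24 h, HSPA9, DNAJC7 and CCT5.

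Compared directly with control cells under the drug, LP-1-cIAP2-eGFP cells differed in 4 members at 6 h (8.70%), beside 4.74% of all genes called in either direction. All 4 were lower, namely SERPINH1 (2.38-fold), DNAJB4 (2.13-fold), CCT7 (1.76-fold) and BAG1 (1.47-fold). At 24 h 4 members differed (8.70%), beside 8.06% of all genes, with TRAP1 lower 2.14-fold, BAG1 1.55-fold and CCT7 1.51-fold, and FKBP5 higher 1.47-fold. For SERPINH1 and DNAJB4 the treated arrays at 6 h did not overlap between the lines, at 14.65 and 14.78 against 16.02 and 15.91 and at 8.21 and 8.47 against 9.48 and 9.37. Both treated control arrays at 6 h were on slide 2 and both treated LP-1-cIAP2-eGFP arrays on slide 1, so line and slide cannot be told apart in this condition.

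Averaged over treatment and time, 10 members differed between the lines (21.7%), beside 21.8% of all genes, and none of the 10 by 2-fold. The chaperonin subunits CCT7 and CCT4 were lower in LP-1-cIAP2-eGFP cells by 0.72 ± 0.06 and 0.41 ± 0.07 (SE, log2), and BAG1, an exchange factor and partner of BCL2, by 0.54 ± 0.06. CCT7 ranged from 14.99 to 15.27 on the 8 LP-1-cIAP2-eGFP arrays and from 15.62 to 16.07 on the 8 control arrays, with no overlap. BAG1 ranged from 14.16 to 14.61 against 14.78 to 15.13, again with no overlap, while CCT4 ranged from 16.35 to 16.97 against 16.77 to 17.47. These ranges pool the conditions, and within each treatment and time CCT4 was lower on the LP-1-cIAP2-eGFP arrays than on the control arrays. DNAJA1, TRAP1, DNAJB4, STIP1 and HSF1 were lower as well, by 1.52-fold, 1.48-fold, 1.36-fold, 1.25-fold and 1.17-fold. DNAJC9 and FKBP5 were higher, 1.34-fold and 1.36-fold, and DNAJC9 ranged from 13.87 to 14.41 against 13.40 to 14.05. Within each treatment and time both genes were higher on the LP-1-cIAP2-eGFP arrays than on the control arrays. In untreated cells alone 6 members differed (13.0%), beside 10.8% of all genes, namely CCT7, DNAJB4, BAG1 and CCT4, which were lower, and FKBP5 and DNAJC9, which were higher. That count fell to 2 or 3 without any untreated array at 6 h, either treated LP-1-cIAP2-eGFP array at 6 h or untreated replicate 2 of that line at 24 h. The share of members that differed between the lines was thus close to that of all genes.

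Slide and line were unevenly combined, since 6 of the 8 arrays on slide 1 were from LP-1-cIAP2-eGFP cells, and so the line difference was read within each slide. CCT7 differed by -0.59 and -0.73 (log2) within slide 1 and by -0.73 and -0.75 within slide 2, and BAG1 by -0.70 and -0.52 and by -0.52 and -0.59. DNAJB4 was lower in the untreated conditions on both slides and higher by 0.28 with bortezomib at 24 h. The bortezomib differences of all members called at each time had the same direction within the slide that held both treatments, and lay within 1.5-fold of the value from all arrays. Most arrays are shared between these 2 values and only called members were compared, so agreement was likely in advance. A slide effect on the bortezomib differences was not tested by it.

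**Figure D4:**
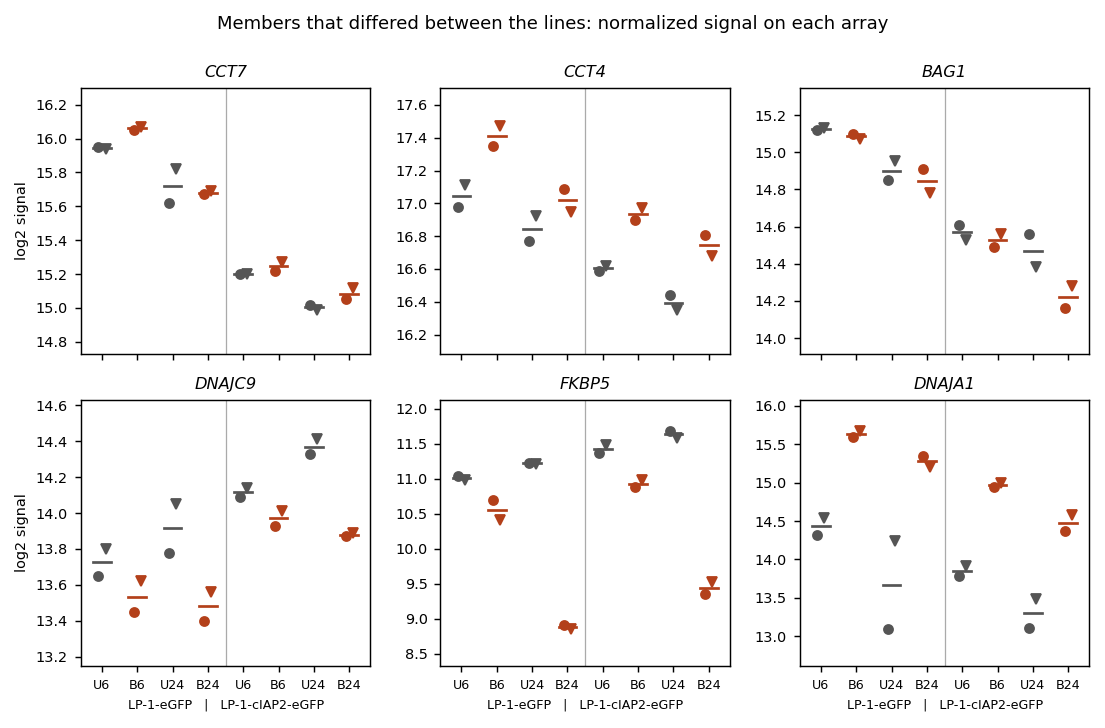
Normalized log2 signal on each of the 16 arrays for 6 of the members that differed between the lines, with untreated arrays in grey and bortezomib-treated arrays in red, and control cells left of the line. Circles are replicate 1, triangles replicate 2, bars their mean, and each panel has its own vertical scale. CCT7 and BAG1 are lower on all 8 LP-1-cIAP2-eGFP arrays than on the 8 control arrays, whereas the lines overlap for FKBP5 and DNAJA1 when all conditions are pooled. Within each treatment and time the FKBP5 values of LP-1-cIAP2-eGFP cells lie above those of control cells.

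The response of the listed members can be set beside other genes of the same chaperone machinery. A list of 59 further tested genes, of J proteins, HSP90 co-chaperones, small heat shock proteins, prefoldins, mitochondrial partners, exchange factors and other heat shock factors, had 2 members higher in control cells and 1 in LP-1-cIAP2-eGFP cells at 6 h and 0 lower, with 9 and 8 at an unadjusted p under 0.05. Over all genes 1.91% and 1.11% were higher at 6 h, against 3.39% and 1.7% of this list. An unadjusted p under 0.05 was found at 6 h for 2564 of 16385 and 2150 of 16379 genes. At 24 h 18 and 19 of the 59 were higher (30.5% and 32.2%), beside 13.3% and 14.4% of all genes. Lower were 5 and 7 (8.5% and 11.9%), beside 15.1% and 22% of all genes. DNAJB9, the J protein of the endoplasmic reticulum that is induced by the unfolded protein response, was higher in both lines at 6 h, by log2 1.68 in each. BAG4, an exchange factor, rose by 2.20 in LP-1-cIAP2-eGFP cells at 24 h, where control cells had -0.18. CCT6B, a testis-enriched chaperonin subunit, fell by 1.86 and 2.75 at 24 h, and it was not well above background on the dim array. Of 10 cytosolic HSP70 genes and direct partners, 7 were higher in each line at 6 h and 8 at 24 h. HSPA6, the strictly inducible HSP70, had the largest log2 differences there, 8.88 and 7.19 at 6 h and 9.37 in both lines at 24 h, and BAG3 rose by 5.48 and 4.46 and then 4.67 and 4.60.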

How the data were processed

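RNA of control cells (LP-1-eGFP) and of LP-1-cIAP2-eGFP cells was hybridised to 16 one-colour Agilent arrays, 2 for each of 8 conditions, and this number limits the precision. Per the file headers, the deposited intensity values had been made with Feature Extraction 10.7.3.1, which corrects the background of each spot and does not normalize between arrays. The authors also deposited log2 values that they had quantile normalized, centred on each probe's median over the arrays; these were used as an alternative, and each column correlated with the centred signal of its own array with r of at least 0.9986 and with other arrays at most 0.4243.

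Outlier spots were left out, spots of a probe were averaged as log2, and arrays were quantile normalized in limma 3.58.1 (R 4.3.3). A probe was kept if both arrays of any condition read it well above background (33731 of 50599). Of the probes, 28174 (55.7%) were matched to symbols through RefSeq accessions, and a gene is given by its brightest probe. The 8 condition means were fitted with lmFit and eBayes (1.61 prior degrees of freedom), and p-values were adjusted by the Benjamini-Hochberg method over all probes tested, with calls at 0.05. The scripts were tested on simulated data. No filter beyond these was applied to the members, and 0 member spots were saturated.

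The members, the further lists and the comparisons were chosen with earlier results of these data known. Values on every array are given for the up to 3 called members of each class with the largest change, for HSP90AA1, HSP90AB1, HSF1 and HSF2, and for members over 2-fold between the lines; others were added after their values were seen. Alternatives were scaling to the 75th percentile, normexp with an offset of 50, the authors' values, no filter or a strict filter on signal, a block for the replicate number or for the slide, array weights, averaged probes, and each array left out in turn, where the remaining array was assumed to vary like the others. One marker gene is not reported here.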

Additional observations from a re-analysis of the deposited data

Results flagged for a closer look

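The response to bortezomib differed between 6 h and 24 h, by a test of the difference itself averaged over the lines, for 10 of 46 members (21.7%), beside 20.7% of all genes, so the share is near that of all genes. It was larger at 24 h for DNAJB2 (log2 difference 1.15, adjusted p = 0.0026, limma), DNAJB14 (1.05, adjusted p = 0.019), DNAJB4 (0.71, adjusted p = 0.0322), HSPA9 (0.64, adjusted p = 0.0276) and HSF1 (0.47, adjusted p = 0.0473). It was smaller or more negative for FKBP5 (-1.8, adjusted p = 0.000105), TRAP1 (-1.62, adjusted p = 0.00254), FKBP4 (-1.13, adjusted p = 0.0138), PTGES3 (-0.81, adjusted p = 0.0226) and CHORDC1 (-0.78, adjusted p = 0.0388). Groups of 2 arrays are too small for a test of single outlying samples.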

How the results depend on the processing

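None of the members called with bortezomib changed direction under any alternative. Only called members were compared, and leaving out an array outside a comparison does not change its fold change. Agreement in direction was therefore likely in advance. Over all alternatives the calls were kept 1388 times and lost 336 times. With array weights 26 members were called in control cells and 21 in LP-1-cIAP2-eGFP cells at 6 h, 7 in LP-1-cIAP2-eGFP cells at 24 h, and 5 between the lines. With the strict filter, which needs signal above background on every array, the 6 h counts were 23 and 21. With normexp the 6 h counts were 8 and 6 and that between the lines 6. With no filter on signal they were 7 and 4, with 5 between the times and 2 between the untreated lines, and with the slide as a block 8 and 4, with 4 between the times and 3 between the untreated lines. Scaling to the 75th percentile gave 4 in LP-1-cIAP2-eGFP cells at 6 h, 13 in control cells at 24 h and 2 between the untreated lines. The cause was not tested.

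With 1 array left out the counts lay between 4 and 20 in control cells and 2 and 19 in LP-1-cIAP2-eGFP cells at 6 h, between 14 and 26 and between 14 and 25 at 24 h, between 4 and 15 between the times, between 7 and 12 between the lines and between 2 and 8 between the untreated lines. The low counts of 14 at 24 h came without treated replicate 1 of the control cells and without untreated replicate 1 of LP-1-cIAP2-eGFP cells, and the count was 15 without untreated replicate 2 of that line. The difference between the lines in the response gave 0 calls throughout at 6 h and between 0 and 3 at 24 h, and untreated cells at 24 h against 6 h 0 throughout. With the replicate block the counts were 16 and 15 at 6 h and 25 and 25 at 24 h, within 1.5 times of those without it. The numbers do not pair the samples, since over 28 pairs of conditions the correlation of replicate deviations lay between -0.113 and 0.236.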
